A study of Rattus norvegicus with 38 samples.

Results

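The genes described here carry the energy shuttle of muscle cells: muscle creatine kinase (Ckm), sarcomeric mitochondrial creatine kinase (Ckmt2), brain creatine kinase (Ckb), the adenine nucleotide translocators Slc25a4 and Slc25a5, and myoglobin (Mb). They were chosen by symbol from a list of 7 genes, of which adenylate kinase Ak1 was not analysed here because the annotation used pairs no probeset with it. Each of the other 6 genes had 1 probeset on each array type, of 15866 tested probesets on the RAE230A array used for heart and 31042 on the RAE230 2.0 array used for peripheral blood mononuclear cells (PBMC). Gene expression was measured in 38 rat samples in 8 groups, by 1 array per sample. The hearts were 5 DA allografts that had been placed in BN recipients, 4 DA isografts that had been placed in DA recipients, the 5 native BN hearts of the allograft recipients and the 4 native DA hearts of the isograft recipients. The PBMC came from 5 BN recipients of an allograft, 9 DA recipients of an isograft, 3 untransplanted BN rats and 3 untransplanted DA rats. The strains of the hearts are taken from the study's methods. All recipients were studied on post-transplant day 6. Dark Agouti (DA) and Brown Norway (BN) are inbred rat strains with mismatched major histocompatibility antigens. Grafts were joined to abdominal vessels while the recipient kept its own heart, and in this model allografts have stopped beating by that day. RNA came from cross-sections of the ventricles and septum, so each heart sample holds muscle together with vessels, matrix cells and any infiltrating leukocytes.

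Creatine kinases pass a phosphate group between ATP and creatine, and so buffer ATP where it is used fast. In heart muscle the mitochondrial enzyme Ckmt2 charges creatine at the site of ATP export, the cytosolic enzyme made of Ckm and Ckb subunits returns the phosphate to ADP at the myofibrils, and the adult heart uses mainly Ckm. Slc25a4 and Slc25a5 exchange ADP for ATP across the inner mitochondrial membrane. Slc25a4 is the form of heart and skeletal muscle, and Slc25a5 the form of proliferating and many other cells. Myoglobin stores oxygen in muscle and speeds its diffusion to mitochondria.

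The promoters of 5 of these genes are given because Ckm, Ckmt2, Mb and Slc25a4 were called lower in allografts and Ckb was called higher. Each runs from 250 bases before to 50 bases after a start site, 5′ to 3′ along the gene, from RefSeq on assembly GRCr8, and a promoter was found for all 6 measured genes. Capitals mark matches, on either strand, to the E-box CANNTG, the MEF2 site or the TATA box TATAAA.
Ckm, chr1:88189211-88189510, plus strand: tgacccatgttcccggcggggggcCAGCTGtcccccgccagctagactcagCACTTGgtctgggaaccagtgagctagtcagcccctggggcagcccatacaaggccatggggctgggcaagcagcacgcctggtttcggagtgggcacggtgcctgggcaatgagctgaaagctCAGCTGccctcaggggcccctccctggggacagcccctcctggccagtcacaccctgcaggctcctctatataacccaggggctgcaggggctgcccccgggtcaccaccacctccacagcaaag
Ckmt2, chr2:24845462-24845761, minus strand: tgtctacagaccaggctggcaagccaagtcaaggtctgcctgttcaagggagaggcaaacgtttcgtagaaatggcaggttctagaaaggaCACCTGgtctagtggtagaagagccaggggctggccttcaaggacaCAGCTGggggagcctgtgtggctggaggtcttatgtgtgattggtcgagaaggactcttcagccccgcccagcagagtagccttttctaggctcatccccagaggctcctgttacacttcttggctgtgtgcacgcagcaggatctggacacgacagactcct
Mb, chr7:110647693-110647992, minus strand: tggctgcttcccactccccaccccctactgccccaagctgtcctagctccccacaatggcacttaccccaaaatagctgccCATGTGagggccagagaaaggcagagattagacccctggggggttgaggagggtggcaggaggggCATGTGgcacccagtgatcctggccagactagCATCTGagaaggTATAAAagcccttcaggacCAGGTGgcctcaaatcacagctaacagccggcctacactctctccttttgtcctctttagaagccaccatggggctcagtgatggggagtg
Slc25a4, chr16:52805271-52805570, plus strand: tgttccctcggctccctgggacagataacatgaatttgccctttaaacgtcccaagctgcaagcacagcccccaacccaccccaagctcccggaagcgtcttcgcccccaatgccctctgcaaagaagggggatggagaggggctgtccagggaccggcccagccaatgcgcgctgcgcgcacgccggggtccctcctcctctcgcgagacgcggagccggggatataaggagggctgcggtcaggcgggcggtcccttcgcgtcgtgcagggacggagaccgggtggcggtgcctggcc
Ckb, chr6:136553415-136553714, minus strand: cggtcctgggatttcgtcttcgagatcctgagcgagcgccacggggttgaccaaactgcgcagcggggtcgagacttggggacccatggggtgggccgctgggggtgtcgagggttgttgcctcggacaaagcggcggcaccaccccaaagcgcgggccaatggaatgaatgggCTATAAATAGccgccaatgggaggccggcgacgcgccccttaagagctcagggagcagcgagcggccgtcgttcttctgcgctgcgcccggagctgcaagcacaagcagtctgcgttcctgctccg
The E-box was matched 3 times in Ckm, 2 times in Ckmt2, 4 times in Mb and 2 times in Slc25a5, and had no match in Ckb or Slc25a4. It is a common motif, held by 72.1% of the 33469 rat promoters of the same length. The MEF2 site, held by 3.29% of these promoters, had its only match among the 6 in Ckb, from 76 to 67 bases before the start, where it overlaps the TATA box that begins 75 bases before the start. TATAAA was also in Mb and is held by 14.2% of the promoters. The CArG box, held by 1.64%, and the estrogen-related receptor site TNAAGGTCA, held by 1.2%, had no match in the 6 windows. These matches describe letters in a window and were not tested as binding sites.

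Signals were expressed relative to the median signal of their array, and this unit is called array medians below. The labelled tissues matched their marker genes. The summed signal of 11 heart muscle markers was 145.5 to 376.4 array medians in allografts, 713.9 to 1159 in isografts, 831.9 to 1158 in native BN hearts and 852.8 to 1268 in native DA hearts, and it was 2.10 to 5.43 over all PBMC samples. A gene passed the test at an adjusted p-value of at most 0.10 in limma, with the Benjamini-Hochberg method over all probesets of the array, and it was called when the change was also at least 3-fold and one of the groups had 50% or more of its samples at or above the array median.

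The rejection effect is the comparison of allografts with isografts, both DA hearts that went through the same operation. The recipients differed in strain, BN for allografts and DA for isografts. Rejection and the strain of recipient cells within the graft therefore cannot be told apart here. The paper names this as a limitation: lymphocytes of the recipient in the allograft may bring strain-related expression with them. All 6 genes passed the test. Ckm, Ckmt2, Mb and Slc25a4 were lower in allografts, and Ckb and Slc25a5 were higher. Over the whole array 21.2% of probesets passed with lower and 20.3% with higher signals, and 5.05% were called lower and 3.81% higher. The 4 lower genes and Ckb were called, and Slc25a5 was not.

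Ckm had the largest change of the 6. Its signal was 4.25, 6.10, 5.57, 3.04 and 7.75 array medians in allografts A3 to A7, against 40.7, 48.3, 64.4 and 70.8 array medians in isografts I11, I12, I13 and I9. The groups did not overlap, and the lowest isograft stood far above the highest allograft. The fitted difference was a 10.8-fold lower level in allografts (log2 fold change -3.43 ± 0.25, SE; adjusted p = 3.6e-08).

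Ckmt2, the mitochondrial partner of Ckm, had 7.77, 12.9, 4.83, 3.76 and 15.1 array medians in allografts A3 to A7, against 40.8, 58.8, 82.6 and 87.3 array medians in isografts I11, I12, I13 and I9. It was 8.35-fold lower in allografts (log2 fold change -3.06 ± 0.35, SE; adjusted p = 3.0e-06). As with Ckm, allografts A6 and A7 were the lowest and the highest of their group.

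Myoglobin had 33.4, 60.7, 20.04, 18.6 and 44.1 array medians in allografts A3 to A7, against 71.9, 76.9, 123 and 140 array medians in isografts I11, I12, I13 and I9. The highest allograft, A4, lay just below the lowest isograft. The level was 3.09-fold lower in allografts (log2 fold change -1.63 ± 0.31, SE; adjusted p = 0.00054).

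Slc25a4, the muscle translocator, had 42.3, 48.1, 34.0, 28.3 and 42.0 array medians in allografts A3 to A7, against 83.8, 96.4, 142 and 154 array medians in isografts I11, I12, I13 and I9. All 5 allografts were below all 4 isografts. The level was 3.01-fold lower in allografts (log2 fold change -1.59 ± 0.22, SE; adjusted p = 2.3e-05), close to the limit of 3 for a call.

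Ckb, the creatine kinase subunit of brain and many non-muscle cells, changed in the other direction. It had 9.48, 6.85, 4.66, 6.33 and 5.86 array medians in allografts A3 to A7, against 3.06, 1.82, 1.82 and 1.84 array medians in isografts I11, I12, I13 and I9. The groups did not overlap, although isograft I11 stood apart from the other isografts. Ckb was 3.11-fold higher in allografts (log2 fold change 1.64 ± 0.22, SE; adjusted p = 1.9e-05).

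Slc25a5 had 59.0, 52.3, 28.2, 40.8 and 40.5 array medians in allografts A3 to A7, against 25.2, 26.9, 32.8 and 35.9 array medians in isografts I11, I12, I13 and I9. Here the groups overlapped, since allograft A5 was below isografts I13 and I9. The level was 1.43-fold higher in allografts (log2 fold change 0.52 ± 0.19, SE; adjusted p = 0.043). It no longer passed when the fit held only allografts and isografts (adjusted p = 0.12), or without allograft A3, isograft I11 or isograft I12 (adjusted p = 0.11, 0.12 and 0.11).

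**Figure D1:**
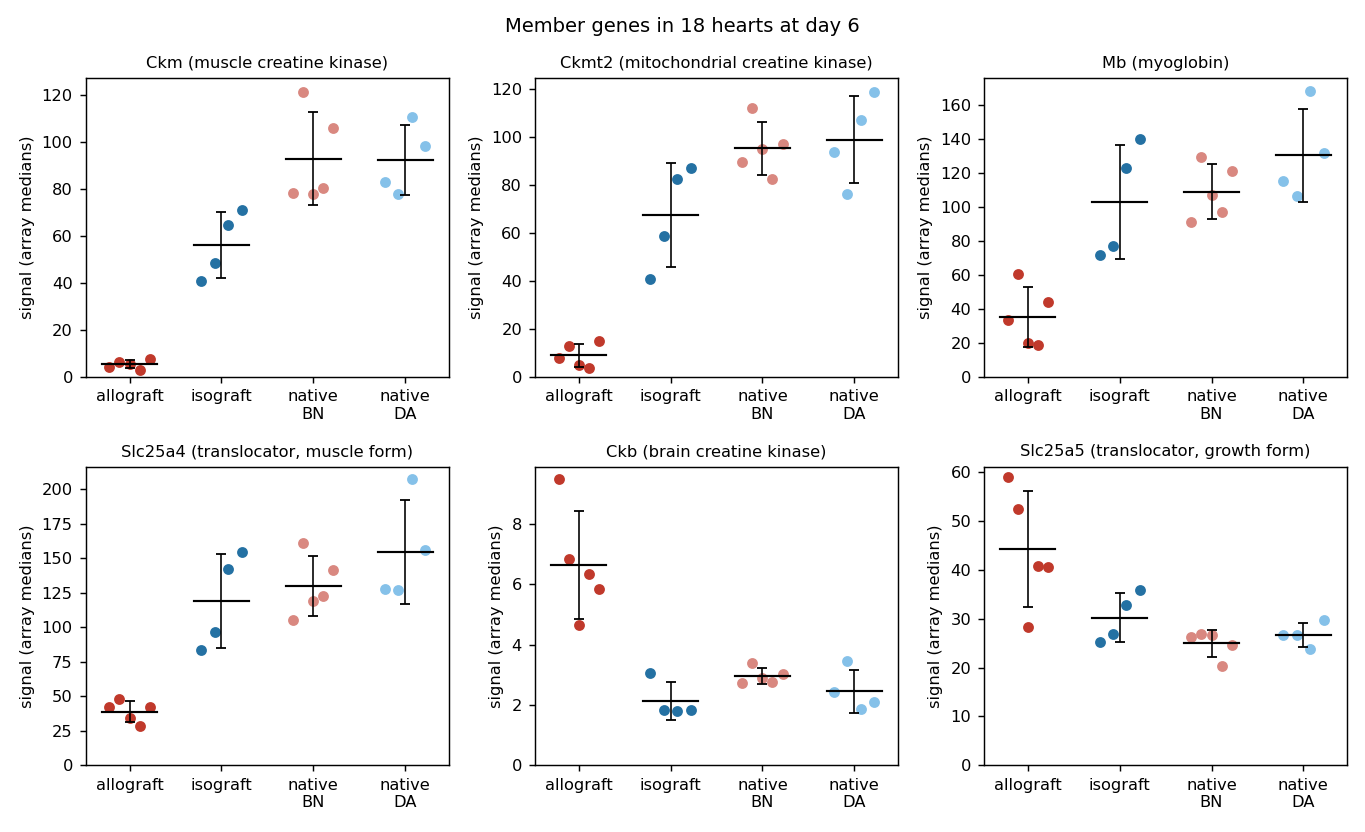
Signal of the 6 genes in array medians (vertical axes, from 0) for each of the 18 hearts, with points for hearts and bars for the mean and SD of allografts (n = 5), isografts (n = 4), native BN hearts (n = 5) and native DA hearts (n = 4). The 5 allografts lie below every other heart for Ckm, Ckmt2, Mb and Slc25a4, and above every other heart for Ckb.

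Other cell types changed in the same grafts. The summed signal of 17 leukocyte markers was 179.7 to 282 array medians in allografts and 24.5 to 37.2 in isografts, and 16 of the 17 passed the test as higher in allografts. All 11 proliferation markers passed as higher, with a summed signal of 30.7 to 45.8 array medians in allografts and 10.95 to 13.7 in isografts. All 11 heart muscle markers passed as lower, with log2 fold changes of -1.27 to -5.31, and none was at 0 in any heart. Of 8 fibroblast markers 5 passed as lower, 4 of them called, with a summed signal of 25.8 to 244.8 array medians in allografts and 209.3 to 269 in isografts. The part of these cell types in the 6 results was not tested, and in whole tissue fewer muscle cells and less RNA per muscle cell cannot be told apart. Within the allografts, A5 and A6 had the lowest summed muscle markers (145.5 and 154.3 array medians) and also the lowest Ckmt2, Mb and Slc25a4, whereas Ckm in A5 was in the middle of the group.

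The changes of the 4 muscle members were set against those of the 11 heart muscle markers on the same arrays, a comparison that was added after the values had been seen. Ckm fell by more than the mean of the markers, and its ratio to that mean was 0.55 times as high in allografts as in isografts (log2 difference -0.86, exact two-sided permutation test over 5 and 4 hearts, p = 0.024, adjusted p = 0.024 over 4 ratios). Ckmt2 also fell by more, with a ratio 0.71 times as high in allografts (log2 difference -0.50, exact permutation p = 0.024, adjusted p = 0.024). For both ratios to the mean of the 11 markers the groups overlapped. Relative to the native DA mean, the ratio of Ckm was 0.558 in allograft A5 and 0.552 in isograft I11. That of Ckmt2 was 0.584 in allograft A7 and 0.519 in isograft I11. The ratio of Mb was 1.91 times as high in allografts (log2 difference 0.94, exact permutation p = 0.0079, adjusted p = 0.024), and that of Slc25a4 was 1.96 times as high (log2 difference 0.97, exact permutation p = 0.016, adjusted p = 0.024). The smallest p-value this test allows is 0.0079. With any 1 of the 9 hearts left out, the differences kept their directions, with adjusted p-values of up to 0.071. The sizes depend on the markers used. Ryr2 and Myh6, at 0.087 to 1.51 and 0.538 to 9.52 array medians in allografts, were below the array median in at least 1 allograft, and without them, on the other 9 markers (also added after the values had been seen), the log2 differences were -1.34 for Ckm, -0.97 for Ckmt2, 0.46 for Mb and 0.50 for Slc25a4 (exact permutation test, adjusted p = 0.021, 0.021, 0.021 and 0.032). Myh6 and Ryr2 had the largest falls of the 11 markers (log2 fold changes -5.31 and -4.09). Leaving them out therefore lowers all 4 differences by the same amount, and the larger values for Ckm and Ckmt2 follow from that choice. On the 9 markers the groups did not overlap for Ckm and only just did not for Ckmt2, whereas those of Slc25a4 overlapped. The directions describe the 4 genes against the mean of the list, and single markers changed by more or less than that mean. In isografts Slc25a4 ranked 6 to 11 and Mb 14 to 32 by signal among all probesets of the array. Whether signals this high understate a fall was not tested.

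Next, the isoform pairs were compared within each array, so that the scaling between arrays plays no part. Relative to the mean of native DA hearts, the ratio of Ckb to Ckm was 85.3, 42.9, 32.0, 79.7 and 28.9 times as high in allografts A3 to A7, against 2.88, 1.44, 1.08 and 1.00 times in isografts I11, I12, I13 and I9. The lowest allograft was far above the highest isograft. The ratio was 33.4 times as high in allografts as in isografts (log2 difference 5.06, exact two-sided permutation test over 5 and 4 hearts, p = 0.0079, adjusted p = 0.016 over 4 tests). On these arrays Ckb was higher and Ckm lower in allografts, each without overlap. Separation of the ratio follows from that, so the test restates the results of the single genes and adds no separate support.

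The ratio of Slc25a5 to Slc25a4, on the same scale, was 7.94, 6.19, 4.72, 8.197 and 5.49 times as high in allografts A3 to A7, against 1.71, 1.59, 1.31 and 1.32 times in isografts I11, I12, I13 and I9. It was 4.32 times as high in allografts as in isografts (log2 difference 2.11, exact permutation p = 0.0079, adjusted p = 0.016). Although Slc25a5 alone overlapped between the groups, its ratio to Slc25a4 did not. Slc25a4 alone did not overlap either, and the ratio reuses the values of both genes.

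Between isografts and native DA hearts the ratio of Slc25a5 to Slc25a4 was 1.47 times as high in isografts (log2 difference 0.56, exact permutation p = 0.029 over 4 and 4 hearts, adjusted p = 0.038), where 0.029 is the smallest p-value this test allows. The log2 difference was 0.49 without isograft I11, 0.52 without isograft I12 and 0.35 without the native DA heart of recipient I13, and each of these had an adjusted p of 0.11. The ratio of Ckb to Ckm was 1.45 times as high in isografts (log2 difference 0.54, exact permutation p = 0.34, adjusted p = 0.34), and its groups overlapped. Both tests took the hearts as unpaired, although each isograft shares its recipient with a native DA heart. No paired test of the ratios was run. On the scale above, the ratio of Slc25a5 to Slc25a4 was 1.18, 1.19, 0.654 and 1.08 in the native hearts of I11, I12, I13 and I9. Each of these was below the isograft of the same recipient.

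**Figure D2:**
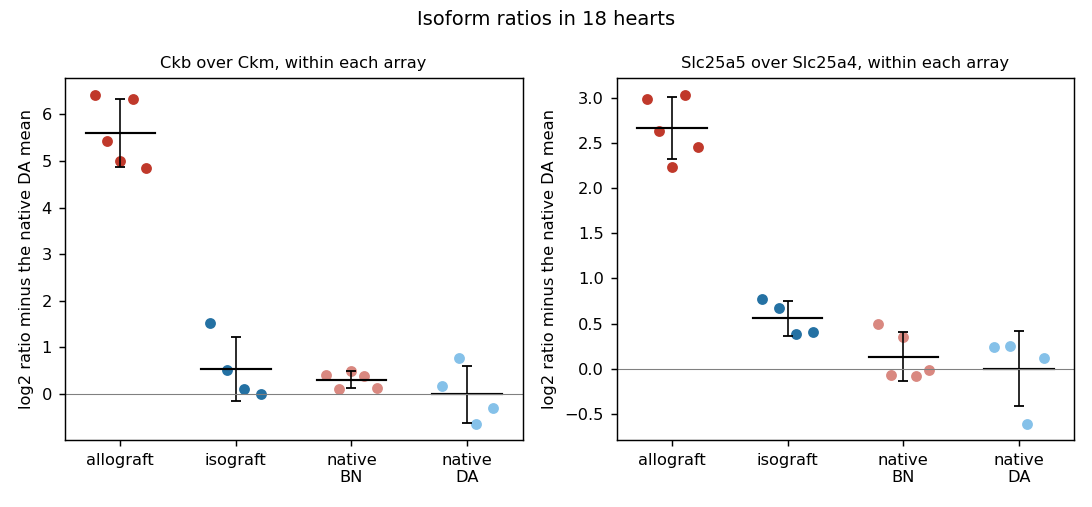
Log2 ratio of Ckb to Ckm (left) and of Slc25a5 to Slc25a4 (right) within each of the 18 arrays, minus the mean of the native DA hearts (vertical axes), with points for hearts and bars for the mean and SD of each group. For both ratios all 5 allografts lie above all 13 other hearts.

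Native hearts from the same rats gave a second reference. In allografts compared with the native BN hearts of the same recipients, all 6 genes passed the test in the directions above, beside 26.3% of probesets that passed as lower and 23.1% that passed as higher. This comparison shares the allografts with the rejection effect, and graft and native heart also differ in strain. In native BN hearts of recipients A3 to A7, Ckm had 78.3, 121, 77.9, 80.5 and 106 array medians, and it was 17.9-fold lower in allografts (log2 fold change -4.16 ± 0.24, SE; adjusted p = 1.0e-09). Ckmt2 was 12.3-fold lower (log2 fold change -3.62 ± 0.33, SE; adjusted p = 1.3e-07). Mb and Slc25a4 were 3.38-fold and 3.36-fold lower (adjusted p = 0.00011 and 2.9e-06). Ckb was 2.19-fold higher (log2 fold change 1.13 ± 0.21, SE; adjusted p = 0.00030), and Slc25a5 was 1.73-fold higher (log2 fold change 0.79 ± 0.18, SE; adjusted p = 0.0017).

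These differences had the same direction in every allograft recipient. The graft held 0.054, 0.050, 0.071, 0.038 and 0.073 of the Ckm signal of the native heart in recipients A3 to A7. For Ckmt2 the graft held 0.046 to 0.155 of the native signal, for Mb 0.188 to 0.470 and for Slc25a4 0.231 to 0.401. For Ckb the graft had 3.48, 2.01, 1.61, 2.31 and 1.93 times the native signal in A3 to A7. Slc25a5 was 2.25, 1.95, 1.06, 2.01 and 1.65 times the native signal, so that recipient A5 showed almost no difference.

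The surgical effect is the comparison of isografts with native DA hearts, which share strain and recipient and differ in transplantation. Only Ckm passed the test, beside 6.59% of probesets that passed as lower and 7.15% that passed as higher. Ckm had 40.7, 48.3, 64.4 and 70.8 array medians in isografts I11, I12, I13 and I9, against 83.1, 77.7, 110 and 98.2 array medians in the native DA hearts of these recipients. Every isograft was below every native heart. Ckm was 1.67-fold lower in isografts (log2 fold change -0.74 ± 0.26, SE; adjusted p = 0.096). This result lies at the threshold: its adjusted p was 0.143 after quantile normalization, 0.103 in a model without moderated variances, 0.104 with only these groups in the fit, and 0.104 to 0.229 without the native heart of I9, I11 or I13 or the isograft I11, I12 or I13.

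The other genes did not pass in isografts. The log2 fold change was -0.60 for Ckmt2 (95% interval -1.38 to 0.18), -0.38 for Mb (-1.08 to 0.32) and -0.39 for Slc25a4 (-0.88 to 0.10). It was -0.20 for Ckb (-0.70 to 0.29) and 0.17 for Slc25a5 (-0.26 to 0.59). These values kept their signs but moved with the processing: Mb and Slc25a4 were at -0.02 each after quantile normalization and at -0.55 and -0.53 without isograft I9, and Slc25a5 was at 0.31 and 0.08 in the same settings. Ckmt2 was at -0.35 after quantile normalization, and Ckb ran from -0.39 without isograft I11 to -0.02 without the native heart of I12. No member passed as higher in isografts in limma, 1 of the 6 members had an unadjusted p below 0.05, and none passed without moderated variances. In single recipients the isograft held 0.435, 0.770, 0.772 and 0.735 of the native Ckmt2 signal in I11, I12, I13 and I9, so it was lower in 4 of 4. Slc25a4 was also lower in 4 of 4 isografts, though in I9 the graft held 0.990 of the native signal. In these grafts 4 of 8 fibroblast markers passed as higher, and the 8 summed to 209.3 to 269 array medians in isografts and 63.7 to 80.0 in native DA hearts. Of 17 leukocyte markers 7 passed as higher, and 1 of 11 heart muscle markers passed, also as higher. The part of these cells in the Ckm result was not tested, and the isografts are the same arrays as in the rejection effect.

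Native BN and native DA hearts were compared for the effect of strain, which in these hearts cannot be told apart from the type of graft the rat had received. No member passed in limma, beside 2.94% of all probesets in either direction; none had an unadjusted p below 0.05 and none passed without moderated variances. The log2 fold changes ran from -0.25 for Mb to 0.30 for Ckb. For Ckm the difference was -0.00 with a 95% interval of -0.54 to 0.53, and for Ckmt2 it was -0.04 with an interval of -0.78 to 0.69. Neither interval reaches the size of the difference between allografts and isografts.

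**Figure D3:**
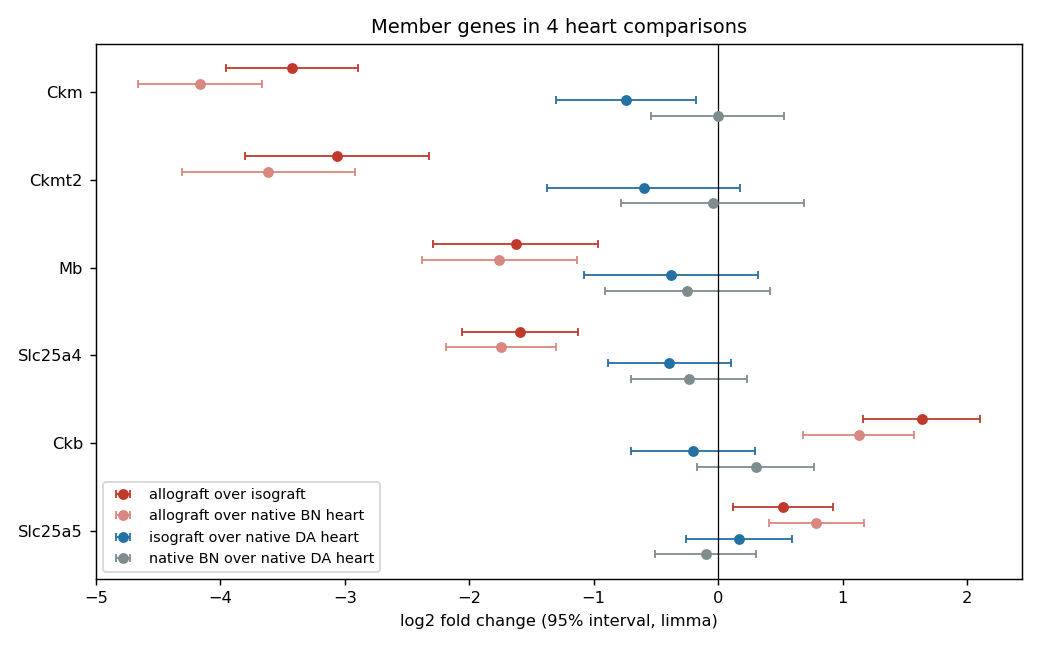
Log2 fold change of the 6 genes (horizontal axis, with 95% intervals from limma) in 4 heart comparisons. The intervals of allograft over isograft and allograft over native BN heart lie below 0 for Ckm, Ckmt2, Mb and Slc25a4 and above 0 for Ckb and Slc25a5, whereas those of native BN over native DA heart all cross 0.

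Over the 4 kinds of heart the muscle members were lowest in allografts, with isografts next. Mean Ckm was 5.34 ± 1.80 array medians in allografts and 56.0 ± 13.9 in isografts, against 92.7 ± 19.7 in native BN and 92.4 ± 14.9 in native DA hearts (SD, n = 5, 4, 5 and 4). The means of native BN and native DA hearts were within their spread. Mean Slc25a4 was 39.0 ± 7.78 array medians in allografts and 119 ± 34.4 in isografts, against 130 ± 21.7 in native BN and 154 ± 37.6 in native DA hearts, and the last 3 groups overlapped. Mean Ckb was 6.64 ± 1.79 array medians in allografts and 2.14 ± 0.62 in isografts, against 2.96 ± 0.28 in native BN and 2.46 ± 0.71 in native DA hearts, and again the last 3 groups overlapped.

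The change from native heart to graft was also compared between allograft and isograft recipients, in a test of the difference itself that was added after the values had been seen. This difference equals the rejection effect minus the difference of native BN from native DA hearts. It therefore reuses the same allografts and isografts and is not separate support. Only in allograft recipients do graft and native heart also differ in strain. The difference passed for 5 of the 6 genes, beside 15.5% of probesets that passed as lower and 14.1% as higher. The graft-to-native ratio in allograft recipients was 10.7-fold lower than in isograft recipients for Ckm (log2 difference -3.42 ± 0.36, SE; adjusted p = 5.9e-06) and 8.10-fold lower for Ckmt2 (-3.02 ± 0.49; adjusted p = 0.00028). It was 2.60-fold lower for Mb (-1.38 ± 0.44; adjusted p = 0.032) and 2.56-fold lower for Slc25a4 (-1.36 ± 0.31; adjusted p = 0.0043). It was 2.52-fold higher for Ckb (1.33 ± 0.32; adjusted p = 0.0051). For Slc25a5 the difference of 0.62 ± 0.27 did not pass (adjusted p = 0.11), but the adjusted p was 0.029 on the signals as deposited, 0.0044 after quantile normalization, 0.064 to 0.097 in 4 further settings, 0.022 without allograft A5 and 0.087 without isograft I9.

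Around these enzymes stands a wider set of genes for creatine synthesis and uptake, adenylate and nucleotide kinases, mitochondrial carriers and pores, AMP deaminases and the AMP-activated kinase. Of 32 such genes 25 were measured in heart. In allografts compared with isografts 10 of the 25 passed as lower and 5 as higher, beside 21.2% of all probesets that passed as lower and 20.3% as higher, so that the share of higher genes was near that of all probesets. The median log2 fold change of the list was -0.43, against 0.02 over all probesets. These counts describe the list and were not tested as a set.

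Among the lower genes, Slc6a8, the creatine transporter of the cell membrane, was 3.66-fold lower (log2 fold change -1.87 ± 0.21, SE; adjusted p = 3.1e-06). Prkaa2, a catalytic subunit of the AMP-activated kinase, was 15.1-fold lower, with a wide error (log2 fold change -3.92 ± 0.77, SE; adjusted p = 0.00062). Cytoglobin (Cygb), a relative of myoglobin found in fibroblasts and other cells, was 4.60-fold lower (adjusted p = 4.6e-06), in a comparison where 5 of 8 fibroblast markers also passed as lower, and their part in it was not tested. Vdac1, a pore of the outer mitochondrial membrane, and Slc25a3, the mitochondrial phosphate carrier, were 2.85-fold and 2.27-fold lower (adjusted p = 1.9e-05 and 0.00052).

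Among the higher genes were the nucleoside diphosphate kinase Nme1 (2.85-fold, adjusted p = 1.5e-06) and the AMP deaminase Ampd2 (2.84-fold, adjusted p = 0.021). The mitochondrial adenylate kinase Ak4 was 1.58-fold higher (adjusted p = 0.018), and Gatm, the first enzyme of creatine synthesis, was 1.55-fold higher (adjusted p = 0.056). The AMP deaminase Ampd3 was among the lower genes, at 1.94-fold (adjusted p = 0.0011).

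**Figure D4:**
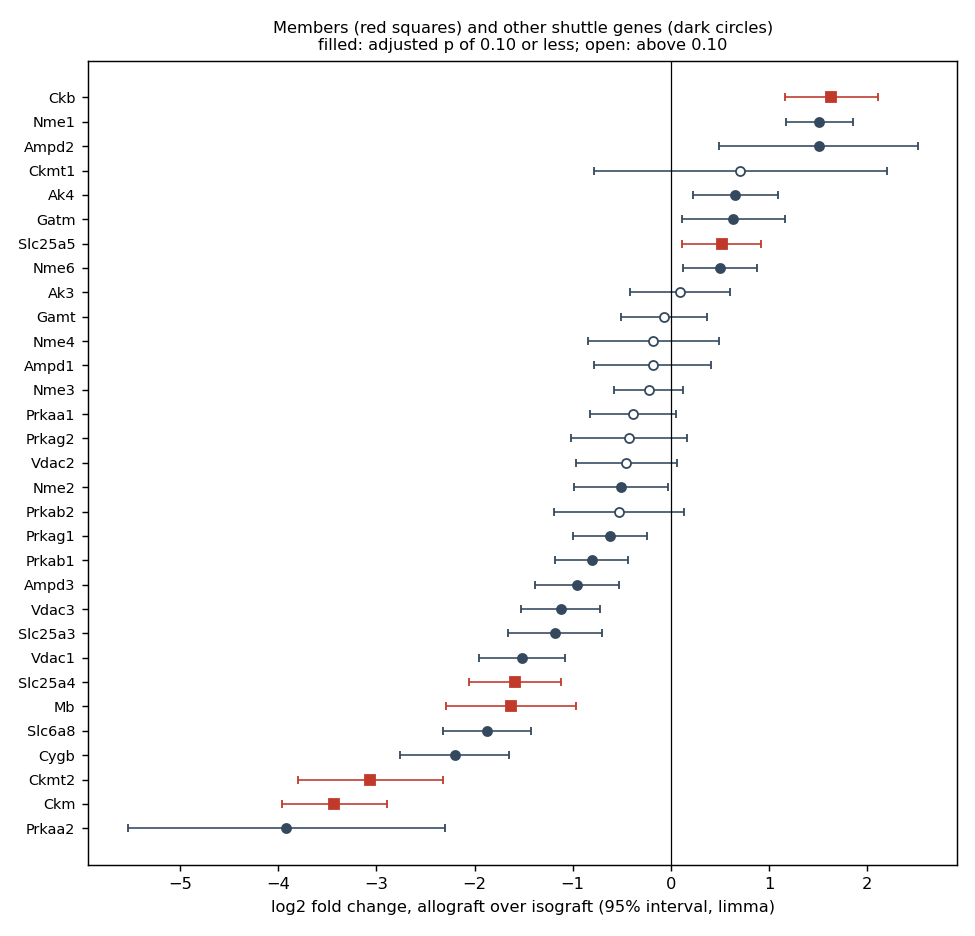
Log2 fold change of allografts over isografts (horizontal axis, 95% intervals from limma) for the 6 members (red squares) and 25 other shuttle genes (dark circles), in order of size, with filled symbols at an adjusted p of at most 0.10. Ckm and Ckmt2 are the lowest but for Prkaa2, and Ckb is the highest.

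In isografts compared with native DA hearts, 4 of the 25 genes passed as lower and 1 as higher, beside 6.59% and 7.15% of all probesets. The list median was -0.35 against -0.08 over all probesets. The lower genes were Nme4 (1.92-fold), Ak4 (1.84-fold), Nme6 (1.61-fold) and Prkag1 (1.44-fold), and the higher gene was Prkaa1 (1.64-fold). Slc6a8 did not pass in isografts (log2 fold change 0.27 ± 0.23, SE; adjusted p = 0.49). The graft-to-native ratio of Slc6a8 was 6.55-fold lower in allograft than in isograft recipients (limma, adjusted p = 9.8e-06). Part of that value is the higher Slc6a8 of native BN than native DA hearts (1.79-fold, below), which enters through the native reference. In allografts compared with native BN hearts 13 of the 25 passed as lower and 4 as higher, beside 26.3% and 23.1% of all probesets. The list median was -0.68 against -0.08. Between native BN and native DA hearts 2 passed as higher, Slc6a8 (1.79-fold, adjusted p = 0.063) and Ampd3 (1.72-fold, adjusted p = 0.064), and none as lower. Over all probesets 2.94% passed there in either direction.

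The genes whose pattern over the 18 hearts was most like each member were found among 6066 genes with a mean signal at or above the array median, as a description with no test. Likeness was the root mean square difference of log2 values after each gene was centred on its native DA mean. For Ckm these were Gpsm1, Asph and Lrrc39 (0.22, 0.27 and 0.29). For Ckmt2 they were troponin I of heart Tnni3, the sarcomere protein Myoz2 and the cytochrome oxidase subunit Cox8b (0.23, 0.28 and 0.28). For Mb they were the cytochrome oxidase subunit Cox6a2, lactate dehydrogenase Ldhb and the myosin light chain Myl2 (0.15, 0.16 and 0.19). For Slc25a4 all 3 belonged to mitochondrial respiration: the ATP synthase subunits Atp5f1e and Atp5f1c and the complex III subunit Uqcrc1 (0.14, 0.16 and 0.15). For Ckb the nearest were Pcna, a replication factor, the G protein subunit Gnb2 and the class I histocompatibility gene RT1-CE10 (0.32, 0.33 and 0.33), none of them as close as for the other members. For Slc25a5 they were Brd7, the proteasome subunit Psmd13 and Trir (0.17, 0.17 and 0.18). Tnni3 and Myl2 are also among the heart muscle markers.

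In PBMC 3 members lay mostly below the array median and 3 above it. Ckmt2 and Mb were below the array median in all 20 samples, at 0.091 to 0.614 and 0.094 to 0.437 array medians. Ckm was at or above the array median in 1 of 5 allograft recipients and 1 of 9 isograft recipients, and otherwise below it, with a range of 0.152 to 1.24. None of the 3 passed in any PBMC comparison, and no fold change is given for signals this low. Ckb, Slc25a4 and Slc25a5 were above the array median in all 20 samples. Signals of heart and PBMC were set on separate arrays with different RNA preparation and were not compared.

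Untransplanted BN and DA rats were compared for strain in blood. No member passed in limma, beside 8.45% of all probesets in either direction; 1 of the 6 had an unadjusted p below 0.05, and 1 passed without moderated variances, both times Slc25a5. It had 93.6, 112 and 95.3 array medians in BN rats 1 to 3, against 153, 134 and 128 array medians in DA rats 1 to 3, without overlap. The log2 fold change was -0.46 ± 0.17 (SE; adjusted p = 0.15), and the adjusted p was 0.091 without moderated variances and 0.081 when only probesets past the signal criterion were tested. Slc25a4 had 12.4, 15.1 and 11.6 array medians in BN rats 1 to 3, against 19.5, 17.1 and 14.8 array medians in DA rats 1 to 3 (log2 fold change -0.39, 95% interval -0.87 to 0.08). Ckb had 7.39, 8.73 and 5.14 array medians in BN rats 1 to 3, against 4.98, 3.93 and 3.40 array medians in DA rats 1 to 3 (log2 fold change 0.77, 95% interval -0.07 to 1.62).

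PBMC of allograft recipients and isograft recipients differ in strain and in rejection together. Here 2 members passed as higher and none as lower, beside 6.66% of probesets higher and 12% lower. Slc25a4 had 13.4, 9.13, 8.67, 7.51 and 8.56 array medians in allograft recipients QR3 to QR7, against a lowest value of 4.75, a median of 5.75 and a highest of 7.67 array medians in the 9 isograft recipients. Only allograft recipient QR6 lay within the range of the isograft recipients. Slc25a4 was 1.52-fold higher in allograft recipients (log2 fold change 0.61 ± 0.15, SE; adjusted p = 0.013).

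Ckb had 5.23, 6.36, 5.35, 4.81 and 4.89 array medians in allograft recipients QR3 to QR7, against a lowest value of 1.16, a median of 3.68 and a highest of 5.57 array medians in the 9 isograft recipients. It was 1.69-fold higher in allograft recipients (log2 fold change 0.76 ± 0.27, SE; adjusted p = 0.079). It no longer passed when the fit contained only these groups (adjusted p = 0.12), nor without any 1 of the 5 allograft recipients or of the isograft recipients QR9, QR16 and QR21 (adjusted p = 0.103 to 0.167). Slc25a5 had 88.8, 70.4, 79.0, 71.8 and 70.9 array medians in allograft recipients QR3 to QR7, against a lowest value of 73.4, a median of 83.0 and a highest of 111 array medians in isograft recipients (log2 fold change -0.21, 95% interval -0.46 to 0.04).

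**Figure D5:**
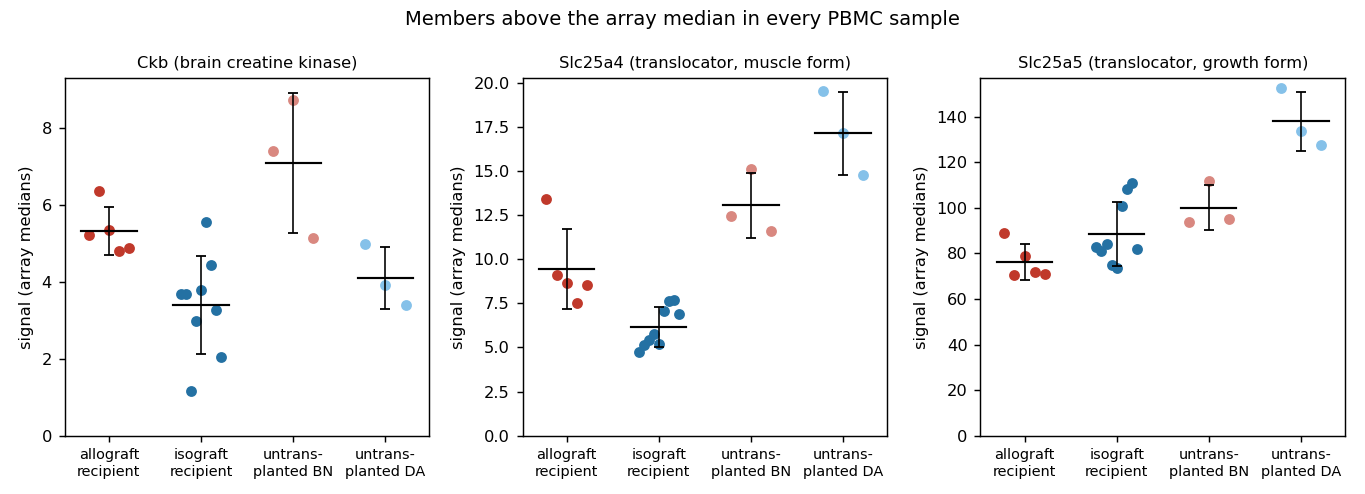
Signal of Ckb, Slc25a4 and Slc25a5 in array medians (vertical axes, from 0) for each of the 20 PBMC samples, with points for samples and bars for the mean and SD of allograft recipients (n = 5), isograft recipients (n = 9), untransplanted BN rats (n = 3) and untransplanted DA rats (n = 3). Slc25a4 is higher in 4 of 5 allograft recipients than in any isograft recipient, whereas its values in untransplanted BN and DA rats overlap.

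Subtracting the strain comparison from the recipient comparison leaves the part not shared with untransplanted rats. No member passed this test in limma, beside 0.348% of probesets in either direction; 1 of the 6, Slc25a4, had an unadjusted p below 0.05, and none passed without moderated variances. The difference for Slc25a4 was 1.00 on the log2 scale (95% interval 0.43 to 1.58; adjusted p = 0.22), and its adjusted p was 0.097 on the signals as deposited and 0.098 after quantile normalization. For Ckb, whose 2 comparisons gave 0.76 in recipients and 0.77 in untransplanted rats, the difference was -0.02 (95% interval -1.04 to 1.00), an interval that spans a 2-fold change in each direction. Transplanted and untransplanted rats were separate sets of arrays, so the difference is taken within each set.

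Other blood cell markers also differed between these groups. In allograft compared with isograft recipients 8 of 9 red cell markers and 5 of 6 platelet markers passed as lower, the sixth platelet marker, Ppbp, passed as higher (2.82-fold), and 4 of 13 proliferation markers passed as higher. The summed red cell signal was 158.1 to 251.5 array medians in allograft recipients and 239.4 to 630.7 in isograft recipients, and the summed platelet signal was 173.6 to 263.2 array medians in allograft recipients and 266.2 to 344.4 in isograft recipients. Of 19 leukocyte markers 5 passed as higher and 8 as lower, with sums of 708.3 to 1046 array medians in allograft recipients and 816 to 1244 in isograft recipients. No marker in these sums was at 0. Their part in the results for Slc25a4 and Ckb was not tested.

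Of the wider list, 29 of 32 genes were measured in PBMC. In allograft compared with isograft recipients 3 passed as higher and 2 as lower, beside 6.66% and 12% of all probesets. The list median log2 fold change was -0.03, against -0.03 over all probesets. Gatm was 5.27-fold higher (log2 fold change 2.40 ± 0.18, SE; adjusted p = 6.3e-08), Ampd3 was 1.96-fold higher (adjusted p = 0.00016) and Vdac1 was 1.52-fold higher (adjusted p = 0.0021). Prkag1, a regulatory subunit of the AMP-activated kinase, was 1.32-fold lower (adjusted p = 0.033), and the adenylate kinase Ak3 was 1.21-fold lower (adjusted p = 0.097). Gatm was also 3.69-fold higher in untransplanted BN than in untransplanted DA rats (adjusted p = 0.00022), where Prkag1 (1.67-fold) and Nme1 (1.47-fold) were lower. Of all probesets 8.45% passed between untransplanted rats in either direction. None of the 29 genes passed in the difference of both comparisons in limma, where 3 had an unadjusted p below 0.05 and none passed without moderated variances. Over all probesets 0.348% passed in that difference.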

How the data were processed

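Gene expression was measured on 18 RAE230A arrays (heart) and 20 RAE230 2.0 arrays (PBMC), with 1 array per animal and tissue. Per probeset the authors deposited 1 linear signal intensity, made with the Affymetrix array software (MAS5) and scaled to a common trimmed mean; background correction and probe summary were part of that step, and the genome build is not given in the sources used here. Heart and PBMC RNA were amplified with different kits, so tissues were not compared. Here 57 control probesets per array were left out, signals were divided by the array median (38.3 to 50.8 in heart, 20.2 to 36.8 in PBMC) and values were transformed to log2. Group means (4 per tissue) were fitted separately in heart and PBMC with limma 3.58.1 in R 4.3.3 (lmFit, eBayes), and p-values were adjusted by the Benjamini-Hochberg method over all probesets. Thresholds were an adjusted p of 0.10, a 3-fold change, and 50% of the samples of one group at or above the array median. The number of arrays limits the precision. On simulated data for the rejection effect over 15866 probesets, 53 of 100 changes of 1 and 77 of 100 changes of 2 on the log2 scale passed, with 22 false calls. For untransplanted PBMC over 31042 probesets, 26 of 100 changes of 1 and 75 of 100 changes of 2 passed, with 13 false calls. Each simulation changed only 200 probesets. In the real data 21.2% passed as lower and 20.3% as higher for rejection, and 8.45% passed for untransplanted PBMC. The Benjamini-Hochberg limit depends on how many probesets change, so the simulated rates do not give the detection rates of these comparisons.

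Symbols came from the platform annotation, updated to RefSeq (GRCr8): 12783 heart and 20826 PBMC probesets had 1 symbol, 312 and 436 had several, and 2771 and 9780 had none. Of those with 1 symbol, 12748 and 20758 matched the gene table. A gene with several probesets is represented by the one with the highest mean signal. The members and gene lists were chosen with earlier results of these data known. All members are named. Of the wider list, up to 4 genes in each direction with the largest change that passed are named, plus Slc6a8, Vdac1, Slc25a3 and Prkaa2 in rejection; Ampd3 and the genes of counts of 5 or fewer were added. Isoform ratios were tested by an exact two-sided permutation test over hearts, without pairing by recipient. Alternatives were other scalings, filters, models, blocks and each array left out.

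Native heart and graft with the same number come from 1 recipient, so they pair by origin. After group means were removed, the correlation of paired hearts over all probesets was -0.045 to 0.119. That value does not describe single members. Ckm, Ckmt2, Mb and Slc25a4 were higher in I9 and I13 than in I11 and I12, both in isografts and in native DA hearts. For Ckb and Slc25a5 this was not so.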

Additional observations from a re-analysis of the deposited data

Results flagged for a closer look

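The change from native heart to graft differed between allograft and isograft recipients for 5 members, by limma's test of the difference itself. That test reuses the arrays of the rejection effect, and only in allograft recipients do graft and native heart also differ in strain. The log2 difference was -3.42 for Ckm (adjusted p = 5.9e-06; lower in graft than native heart in 5 of 5 allograft and 4 of 4 isograft recipients) and -3.02 for Ckmt2 (adjusted p = 0.00028; lower in 5 of 5 and 4 of 4). It was -1.38 for Mb (adjusted p = 0.032; lower in 5 of 5 and 3 of 4) and -1.36 for Slc25a4 (adjusted p = 0.0043; lower in 5 of 5 and 4 of 4). For Ckb it was 1.33 (adjusted p = 0.0051), with a graft above the native heart in 5 of 5 allograft and 1 of 4 isograft recipients.

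Single samples stood apart from their group in 2 of the 36 sets of 4 to 9 values examined, where chance gives about 1 in 20. Ckb in isograft I11 had 3.06 array medians, against 1.82 to 1.84 in the other isografts. Ckm in PBMC of isograft recipient QR12 had 0.189 array medians, against 0.579 to 1.24 in the other isograft recipients, nearly all of them below the array median.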

How the results depend on the processing

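Ckm, Ckmt2, Mb, Slc25a4 and Ckb kept their direction and passed under every alternative run for allografts against isografts and allografts against native BN hearts. Each measured member has 1 probeset, so the alternatives with other probesets of a gene could not be run. When the fit held just the compared groups, 1 member was higher in allografts than isografts (Slc25a5 lost), 0 were lower in isografts than native DA hearts (Ckm lost) and 1 was higher in PBMC of allograft recipients (Ckb lost). The count lower in isografts was 0 after quantile normalization and 0 without moderated variances. The count lower in PBMC of untransplanted BN rats was 1 without moderated variances and 1 when only probesets past the signal criterion were tested, and the difference of the PBMC comparisons had 1 member on the signals as deposited and 1 after quantile normalization. Leaving out 1 array gave 1 to 2 members higher in allografts than isografts, 0 to 1 lower in isografts and 1 to 2 higher in PBMC of allograft recipients, and log2 differences of 0.35 to 0.64 for the ratio of Slc25a5 to Slc25a4 in isografts against native DA hearts. The cause of these changes was not tested, beyond the smaller number of arrays.

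Differences near 0 that did not pass changed sign. Between native hearts, quantile normalization gave 0.16 for Ckm, 0.14 for Ckmt2 and 0.042 for Slc25a4, the deposited scale gave 0.033 for Ckm, and leaving out 1 array gave -0.107 to 0.086 for Ckm and -0.162 to 0.050 for Ckmt2. Quantile normalization gave 0.057 for Slc25a5 in PBMC of recipients and 0.10 for the PBMC difference of Ckb, which ran from -0.23 to 0.15 when 1 array was left out. The median of all PBMC probesets was -0.08 for strain and -0.03 for recipients, and 0.08 and 0.10 on the deposited scale.

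With the recipient as a block, 4 members were lower and 2 higher in allografts than native BN hearts, and 1 was lower and 0 higher in isografts than native DA hearts, as without it; 5 passed in the difference of both. As a random block it left 4 lower and 2 higher in allografts than isografts, and 6 passed in the difference, where Slc25a5 was added. Untransplanted rats share only a number (r of 0.0030 to 0.037), and with it as a block 0 members passed.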
